A study of Homo sapiens with 95 samples.

Results

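MME encodes neprilysin, and it was described here as 1 of the 27978 genes listed for every sample of a sparse full length (SFL) RNA-seq series. The gene was chosen because it had the largest rise in PIK3CA-overexpressing cells against HcRed control cells, both treated with DMSO, so its values in those 6 samples are a description and carry no test. SFL is a barcoded RNA-seq method based on depletion of ribosomal RNA, in which the libraries of many samples are pooled and sequenced together at low depth. The series holds 95 samples of AALE, a human airway epithelial line immortalized in culture, in 32 combinations of 8 lines and 4 treatments. Of these combinations, 31 had 3 replicates, and FGFR1 cells with CSC had 2.

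The 8 lines were AALE cells that overexpressed PIK3CA, NRF2 (the gene NFE2L2), FGFR1 or NRG1, AALE cells that carried a vector with the reporter HcRed as the control of overexpression, CRISPR knockouts of FAT1 or CDKN2A, and cells transfected with the pSpCas9-EGFP plasmid PX458 but no guide RNA, named GFP, as the control of the knockouts. Every line received the solvent DMSO or 1 of 3 carcinogens. CSC is a condensate of cigarette smoke and was given at 24 μg/ml. BaP, the polycyclic hydrocarbon benzo(a)pyrene, was given at 173 μM and NNK, a nitrosamine of tobacco, at 490 μM. All lines share the immortalized AALE background. The sources used here do not say whether a line was 1 clone or a pool, so the spread between replicates does not cover differences between independently made lines of the same perturbation.

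Neprilysin, also known as CD10 or CALLA, is a zinc metallopeptidase of the M13 family that is anchored in the cell membrane with its active site outside the cell. It cleaves small peptides such as substance P, bradykinin, endothelins, natriuretic peptides and enkephalins, and in the airway it is known for limiting the action of tachykinins. PIK3CA encodes p110 alpha, the catalytic subunit of class I PI3 kinase, which makes the lipid that recruits AKT kinases to the membrane. Active AKT keeps FOXO transcription factors out of the nucleus and turns on the mTORC1 complex.

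MME lies on the plus strand of chromosome 3 at chr3:154741913-154901493 (GRCh37), spans 160 kb and has 23 exons in its representative transcript. An antisense gene, MME-AS1, overlaps 214 of the 9863 exonic bases of MME (2.17%) and is not listed in the count files. Whether the counting used strand is not given in the sources used here, so reads from those bases could not be assigned to 1 of the 2 genes. RefSeq gives 4 start sites for MME on GRCh38.p14, in overlapping or neighbouring windows that run from 250 bases before to 50 bases after each start. The bases before the first start are shown because MME was the most raised gene of the comparison that chose it, and the capitals mark GC boxes, the letters GGGCGG on either strand.
MME, chr3:155079422-155079671, plus strand: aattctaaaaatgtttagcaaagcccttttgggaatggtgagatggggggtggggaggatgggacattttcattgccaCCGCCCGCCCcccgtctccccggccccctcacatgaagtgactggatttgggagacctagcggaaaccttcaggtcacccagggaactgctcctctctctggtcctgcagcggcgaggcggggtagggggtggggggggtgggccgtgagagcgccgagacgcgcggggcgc
The later windows hold 3 further GC boxes, which start 46, 144 and 205 bases after the first start and are shown with 12 bases on each side.
MME, chr3:155079706-155079735, plus strand: aggctggagcagCCGCCCaactcctggcgc
MME, chr3:155079804-155079833, plus strand: gccccacggcccGGGCGGaggcgggtccgg
MME, chr3:155079865-155079894, plus strand: cccgcgcgccttGGGCGGatgcacggactg

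The 2 GC boxes before the first start overlap each other, and 45.0% of all 35116 promoter windows of the same length hold at least 1 GC box. The GC content of the 4 MME windows was 63.3%, 73.0%, 71.0% and 66.3%, against a median of 58.7% over all windows. On both strands, none of the 4 windows held GTAAACA, the letters of a FOXO element found in 3.42% of all windows. TGANTCA for AP-1 (7.71% of windows), TGACNNNGC for the antioxidant response element bound by NRF2 (13.3%), CACGTG for the E-box (7.26%) and TATAAA for the TATA box (11.5%) were not in these letters either. The letters searched for AP-1 and for the antioxidant response element can match the same bases. A match or its absence describes these letters and says nothing of a factor's binding.

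Counted reads per sample numbered 287446 to 2116383, with 529208 to 1653947 in the PIK3CA line and 432015 to 1494564 in the HcRed line. At this depth 3 counts correspond to 1.42 to 10.4 CPM (counts scaled by library size, for this range without TMM normalization). MME had between 0 and 44 counts per sample. The depth therefore limits every value of MME in a single library. The targeted genes moved as labelled: the level of PIK3CA was 449 to 619 CPM in the 12 samples of the PIK3CA line and 63.0 to 101 CPM in the 12 HcRed samples, with medians that differed 6.21-fold. The medians of NFE2L2, FGFR1 and NRG1 were 6.60, 22.9 and 328 times those in HcRed cells in their lines, and those of FAT1 and CDKN2A were 0.262 and 0.475 times those in GFP cells, with no overlap between the samples of a line and its control. All 15 markers of basal airway epithelium, such as the keratins KRT5 and KRT14 and the transcription factor TP63, were detected in both lines.

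With DMSO, the comparison that chose MME, the 3 PIK3CA samples had 23, 29 and 26 counts (22.4 ± 2.24 CPM, SD, n = 3). The 3 HcRed samples had 2, 0 and 3 counts (1.56 ± 1.48 CPM, SD, n = 3). Every PIK3CA sample lay above every HcRed sample, and the fitted log2 fold change was 3.54. The share of counts that fell in MME was 12.3 times as high in PIK3CA cells, from 78 against 5 counts in all. This ratio comes from the samples that chose the gene and carries no test. It rests on 5 counts in HcRed cells, so counting error alone leaves it imprecise. In this comparison 8.60% of 14278 tested genes passed an adjusted p of 0.05, and 14.2% had all 3 PIK3CA samples above all 3 HcRed samples. The genes just behind MME were PREX1 (3.19), which encodes an exchange factor that activates Rac downstream of PI3K, and TENM3 (2.68), which encodes the membrane protein teneurin-3. PREX1 had 20, 29 and 13 counts in PIK3CA cells and 2, 0 and 3 in HcRed cells.

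Samples treated with a carcinogen were not used to choose MME, and they answered whether the difference between the PIK3CA and HcRed lines held there. With CSC, the PIK3CA samples had 13, 14 and 32 counts (16.7 ± 4.02 CPM, SD, n = 3) and the HcRed samples had 3, 6 and 3 counts (3.24 ± 0.893 CPM, SD, n = 3). MME was higher in PIK3CA cells by 2.22 on the log2 scale (SE 0.47, adjusted p = 1.35e-04, limma), in a comparison where 10.3% of 14595 genes passed. With BaP, the PIK3CA samples had 13, 8 and 15 counts (14.3 ± 4.91 CPM, SD, n = 3) and the HcRed samples had 5, 8 and 1 counts (3.68 ± 1.67 CPM, SD, n = 3). The second PIK3CA and the second HcRed sample both had 8 counts, but they differed in depth, and on the CPM scale the groups did not overlap. With BaP the rise was 1.67 on the log2 scale (SE 0.48, adjusted p = 0.0167, limma), with 7.12% of genes passing. With NNK, the PIK3CA samples had 26, 21 and 8 counts (16.5 ± 4.02 CPM, SD, n = 3) and the HcRed samples had 1, 5 and 2 counts (4.27 ± 2.72 CPM, SD, n = 3). With NNK it was 1.87 on the log2 scale (SE 0.56, adjusted p = 0.0187, limma), with 6.62% of genes passing.

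MME was thus higher in PIK3CA cells than in HcRed cells with each of the 3 carcinogens, and in no treatment did the samples of these lines overlap in CPM. The share of genes that lay higher without overlap was 13.1% with CSC, 11.3% with BaP and 12.8% with NNK. The calls with BaP and NNK each rested on few counts. With BaP the adjusted p was 0.145 with DESeq2, 0.130 without HcRed replicate 1 and 0.0953 without PIK3CA replicate 3. With NNK it was 0.192 with DESeq2, 0.297 without HcRed replicate 1, 0.0527 without HcRed replicate 3 and 0.0731 without PIK3CA replicate 1. The call with CSC held in all of these refits, with an adjusted p of at most 0.00467.

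Over the 3 carcinogens together, the 9 PIK3CA samples lay between 9.999 and 21.0 CPM with a median of 15.0, and the 9 HcRed samples lay between 1.42 and 6.85 CPM with a median of 3.57. The lowest PIK3CA sample stood above the highest HcRed sample, which was the case for 1.57% of 14372 genes. The log2 fold change in a fit with treatment as a covariate was 1.94 (SE 0.27, 3.84-fold, adjusted p = 2.11e-08, limma), and 21.8% of genes passed, 10.8% higher and 11.0% lower in PIK3CA cells. By an exact permutation test of the line labels within treatments, the mean difference of 1.64 in log2 CPM had a 2-sided p of 0.00025, the smallest that the 8000 arrangements allow. The call held without any 1 of the 18 samples, with log2 fold changes from 1.81 to 2.04. Among 1351 genes that rose and averaged 10 counts or more, MME ranked 14 by size, and it ranked 13 of 726 with CSC and 23 of 420 with NNK. PREX1 rose by 2.04 (SE 0.26, adjusted p = 3.66e-09, limma) and TENM3 by 2.62 (SE 0.16, adjusted p = 2.10e-23, limma) over the same samples, so neither was behind MME there.

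**Figure D1:**
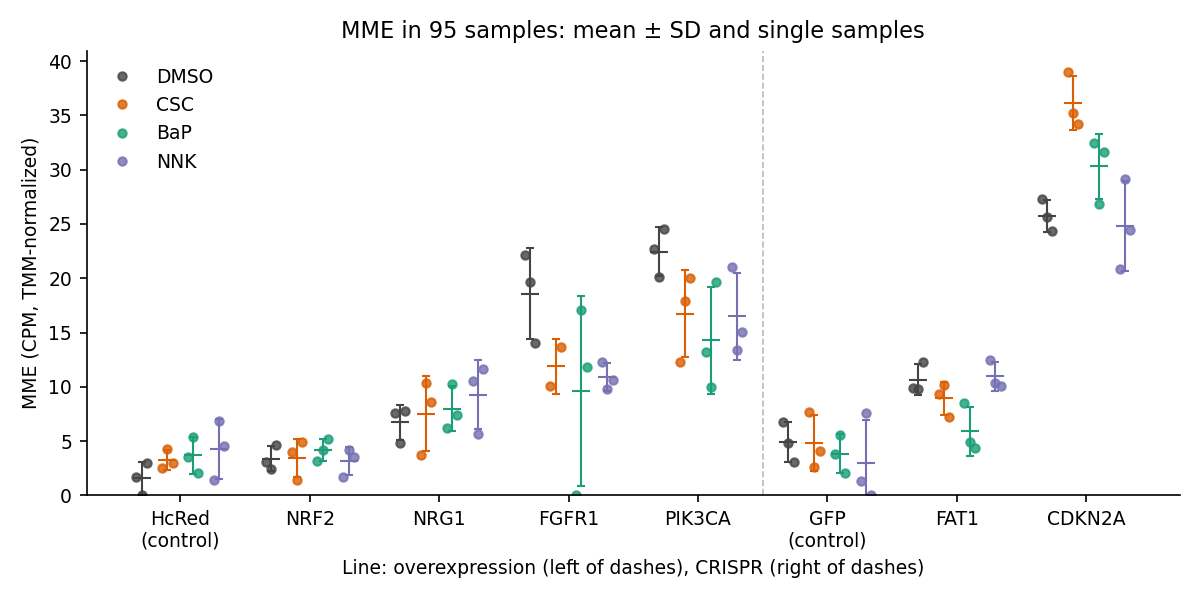
MME level in CPM (y axis) in each of the 95 samples, grouped by line (x axis) and coloured by treatment; points are samples, and bars are the mean and SD of each combination. The 12 PIK3CA samples lie between 9.999 and 24.5 CPM, above the 12 HcRed samples, while the CDKN2A samples reach 39.0 CPM.

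The size of the difference between the PIK3CA and HcRed lines was not shown to depend on the carcinogen. On the log2 scale, the rise with CSC exceeded that with BaP by 0.54 (95% interval -0.76 to 1.84, adjusted p = 0.956, limma) and that with NNK by 0.35 (-1.02 to 1.72, adjusted p = 0.981, limma). The difference between BaP and NNK was -0.19 (-1.59 to 1.20, adjusted p = 0.968, limma). Of all 14372 genes, 0%, 0.0557% and 0.146% passed in these 3 contrasts. These intervals are wide enough to hold differences of more than 2-fold in either direction for 2 of the 3 contrasts. Within PIK3CA cells, the log2 difference of CSC from BaP was 0.25 (-0.40 to 0.91, adjusted p = 0.840, limma), that of CSC from NNK was 0.05 (-0.53 to 0.64, adjusted p = 0.964, limma) and that of BaP from NNK was -0.20 (-0.86 to 0.46, adjusted p = 0.954, limma), where 1.68%, 3.03% and 0.301% of genes passed. In PIK3CA cells the mean was higher with DMSO, at 22.4 CPM against 14.3 to 16.7 CPM with the carcinogens. In HcRed cells it was lower with DMSO, at 1.56 CPM against 3.24 to 4.27 CPM. The samples with DMSO chose the gene, so both differences are a description.

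The carcinogens themselves were compared with DMSO in the 6 lines other than PIK3CA and HcRed. The log2 fold change of MME was 0.03 with CSC (95% interval -0.19 to 0.24, adjusted p = 0.868, limma), -0.09 with BaP (-0.31 to 0.14, adjusted p = 0.558, limma) and -0.13 with NNK (-0.33 to 0.08, adjusted p = 0.3203, limma). None passed the threshold, in comparisons where 44.6%, 47.9% and 47.6% of genes passed. The intervals reach at most 0.33 on the log2 scale in size.

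MME was not high in the PIK3CA line alone. The order of the lines by mean log2 CPM over the 3 carcinogens was CDKN2A (5.004), PIK3CA (4.14), FGFR1 (3.48), FAT1 (3.38), NRG1 (3.33), HcRed (2.498), NRF2 (2.48) and GFP (2.44). The 4 CDKN2A combinations ranked 1 to 4 of 32 by mean log2 CPM, the PIK3CA combinations 5, 7, 8 and 9, and FGFR1 with DMSO ranked 6. The lowest rank was that of HcRed with DMSO, the control in the comparison that chose MME. FGFR1 encodes a receptor tyrosine kinase, NRG1 a ligand of ERBB receptors, FAT1 an atypical cadherin, CDKN2A the cell cycle inhibitors p16INK4a and p14ARF, and NRF2 the transcription factor of the antioxidant response.

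In the CDKN2A knockout, MME lay between 20.8 and 39.0 CPM with a median of 28.2 over 12 samples, and in GFP cells between 0 and 7.72 CPM with a median of 3.95. The lines did not overlap within any of the 4 treatments or over all of them, and 4.64% of 14383 genes lay higher without overlap over all 12 against 12 samples. The log2 fold change was 2.79 (SE 0.20, 6.93-fold, adjusted p = 1.21e-19, limma), in a comparison where 56.1% of genes passed. FAT1 knockout cells had 4.32 to 12.5 CPM with a median of 9.84, which was higher than GFP by 1.18 (SE 0.28, adjusted p = 2.87e-04, limma, 46.0% of genes passing), and the samples overlapped in 2 of 4 treatments.

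FGFR1 cells with a carcinogen had 0 to 17.1 CPM with a median of 11.2 over 8 samples. The sample at 0 was BaP replicate 1, whose 287446 counted reads were the fewest of the series. A count of 0 there allows a level of up to 10.4 CPM, scaled by library size without TMM normalization. That limit covers counting error alone. FGFR1 cells exceeded HcRed cells over 3 carcinogens by 1.51 on the log2 scale (SE 0.34, adjusted p = 0.00129, limma, 8.87% of genes passing), and the adjusted p was 0.0553 without replicate 2. NRG1 cells had 3.67 to 11.7 CPM with a median of 8.58 over 9 samples. Their log2 fold change against HcRed was 1.01 (SE 0.29, adjusted p = 0.0195, limma, 7.83% of genes passing), which missed the threshold with DESeq2 (adjusted p = 0.0569) and without replicate 1 (0.237) or replicate 3 (0.101). NRF2 cells differed from HcRed by -0.02 (95% interval -0.65 to 0.62, adjusted p = 0.982, limma, 18.5% of genes passing) and GFP cells by 0.01 (-0.69 to 0.70, adjusted p = 0.989, limma, 38.7% of genes passing).

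**Figure D2:**
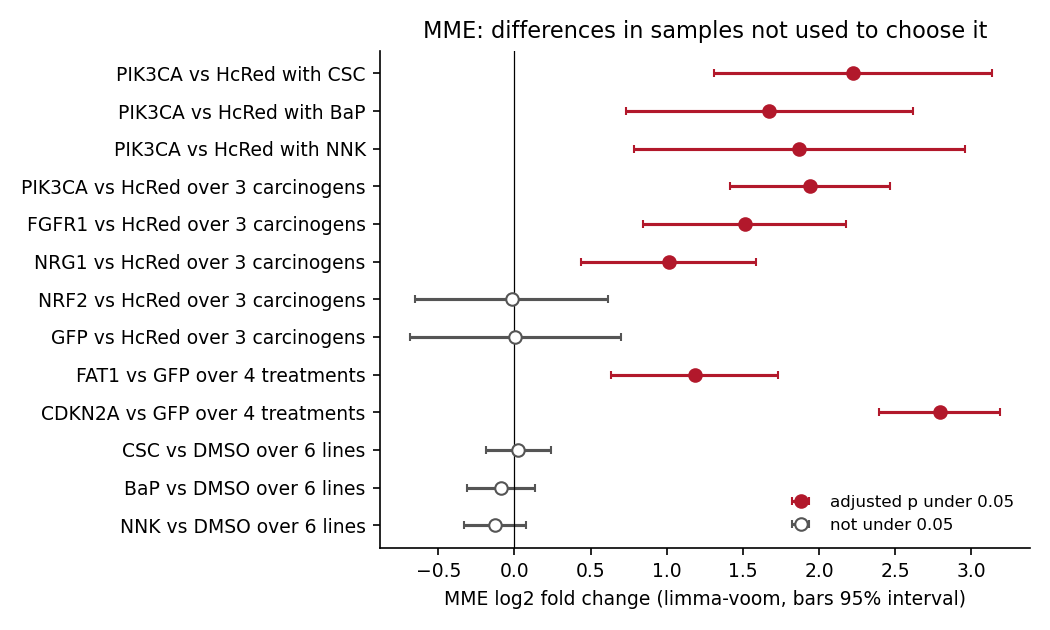
Log2 fold change of MME (x axis) with its 95% interval for 13 comparisons (y axis) that use no sample of the choosing comparison. Filled points passed an adjusted p of 0.05. The differences of PIK3CA, FGFR1, NRG1, FAT1 and CDKN2A from their controls lie above 0, and those of the carcinogens from DMSO lie near 0.

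PIK3CA cells were also set against the other lines in 1 fit of all 8 lines with the carcinogens, which was added after the values had been seen and which compares lines made in different ways. PIK3CA cells were higher than GFP cells by 1.99 (SE 0.28, adjusted p = 1.76e-09, limma), than NRF2 cells by 1.96 (SE 0.27, adjusted p = 6.22e-09, limma), than NRG1 cells by 0.90 (SE 0.23, adjusted p = 0.00142, limma) and than FAT1 cells by 0.76 (SE 0.23, adjusted p = 0.00427, limma). Of the genes tested, 46.3%, 18.9%, 22.3% and 46.8% passed in these 4 comparisons. The call against FAT1 was lost without replicate 3 (adjusted p = 0.120). From FGFR1 cells they differed by 0.46 (95% interval 0.01 to 0.91, adjusted p = 0.206, limma), which did not pass after adjustment, as 11.7% of genes did. CDKN2A knockout cells were higher than PIK3CA cells: the log2 fold change of PIK3CA against CDKN2A was -0.94 (SE 0.18, adjusted p = 6.05e-06, limma, 52.9% of genes passing). Neighbours lower in the order did not differ beyond their spread, with 0.30 between FGFR1 and FAT1 (-0.20 to 0.81, adjusted p = 0.397, limma) and 0.15 between FAT1 and NRG1 (-0.36 to 0.65, adjusted p = 0.693, limma), where 33.1% and 36.3% of genes passed. The rise of CDKN2A cells over GFP exceeded that of PIK3CA cells over HcRed by 0.96 (SE 0.37, adjusted p = 0.0328, limma, 40.0% of genes passing), and this difference missed the threshold with edgeR (0.0720), with DESeq2 (0.0739) and without replicate 2 (0.316) or 3 (0.0989).

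The genes next to MME on its chromosome were described for the same comparisons. The 5 nearest listed genes before it were LINC02006, ARHGEF26-AS1, ARHGEF26, DHX36 and GPR149, and those after it were LINC01487, PLCH1, PLCH1-AS2, C3orf33 and SLC33A1. Of these 10, 5 had enough reads to be tested. In PIK3CA cells over 3 carcinogens none of the 5 passed (adjusted p from 0.245 to 0.958, limma), where 10.8% of all genes were higher and 11.0% lower. So few genes leave room for none to pass at these shares. DHX36, a helicase of G-quadruplexes, had a log2 fold change of 0.01 and SLC33A1, an acetyl-CoA transporter, one of -0.01. ARHGEF26 was at 0.22, PLCH1 at 0.27 and C3orf33 at 0.56. In CDKN2A cells all 5 were higher than in GFP cells, where 28.6% of genes were higher and 27.5% lower. Their log2 fold changes were 0.87 for ARHGEF26, 0.91 for DHX36, 1.10 for PLCH1, 1.87 for C3orf33 and 0.98 for SLC33A1.

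After these values had been seen, genes that averaged 10 counts or more were followed along the whole chromosome. In CDKN2A cells the median log2 fold change was between -0.40 and -0.23 in the bins of 20 Mb centred 140 to 80 Mb before MME, 0.42 in the bin centred 20 Mb before it, 0.52 in the bin around it, and 0.66 and 0.64 in the bins centred 20 and 40 Mb after it. From 10 Mb before MME to the end of the chromosome, 134 of 152 genes were higher in CDKN2A cells and 2 were lower, against 30.4% higher on the other chromosomes. The rise of MME, at 2.79, was larger than that of any of these 152 genes. PIK3CA, which lies 24.0 Mb from MME, was among the genes that were higher in CDKN2A cells (1.04, SE 0.08, adjusted p = 2.39e-19, limma). In PIK3CA cells the same stretch had a median of -0.01, with 11 of 144 genes higher and 17 lower, against 1232 higher and 1212 lower of 9262 genes on the other chromosomes, and the bin around MME had a median of 0.03. The medians of bins of this width over the genome ranged from -0.88 to 0.85 in CDKN2A cells and from -0.97 to 0.67 in PIK3CA cells. DNA copy number was not analysed here, and the part of the position in the rise of MME was not tested.

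**Figure D3:**
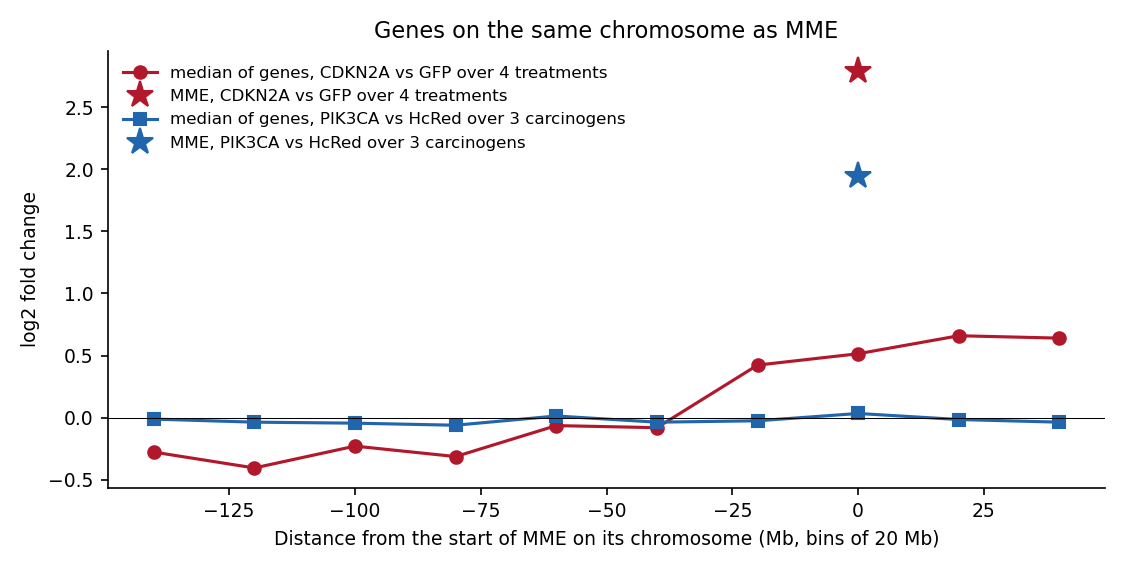
Median log2 fold change (y axis) of genes on the chromosome of MME in bins of 20 Mb by distance from its start in Mb (x axis), for CDKN2A against GFP (red) and PIK3CA against HcRed (blue); stars are MME itself, and a bin of 4 genes at the far end is left out. The CDKN2A line lies between 0.42 and 0.66 from 20 Mb before MME on, and the PIK3CA line stays near 0.

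The genes whose group means were most like those of MME over the 32 combinations, among 10062 genes averaging 10 counts or more, were MCAM (Pearson's r = 0.87), IGFBP7 (0.85), TENM3 (0.84), TNFAIP3 (0.83) and HSPA5 (0.82). MCAM encodes the adhesion molecule CD146, IGFBP7 a secreted binding protein of insulin-like growth factors, TNFAIP3 the NF-kappaB inhibitor A20 and HSPA5 the chaperone BiP of the endoplasmic reticulum. These correlations are descriptions over combinations that share lines, treatments and a sequencing pool. Without the 4 PIK3CA combinations, the 5 genes over 28 combinations were MCAM (0.87), SCCPDH (0.85), HSPA5 (0.84), IGFBP7 (0.84) and GID4 (0.83), so that 3 genes were named in both. The group means of MCAM lay between 7.02 and 7.28 log2 CPM in the PIK3CA line, 6.34 and 6.76 in the HcRed line and 7.29 and 7.60 in the CDKN2A line. The choice used these groups, so the log2 fold changes of PIK3CA against HcRed over 3 carcinogens are a description with no test: 0.59 for MCAM, 0.97 for TNFAIP3 and 0.96 for IGFBP7.

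**Figure D4:**
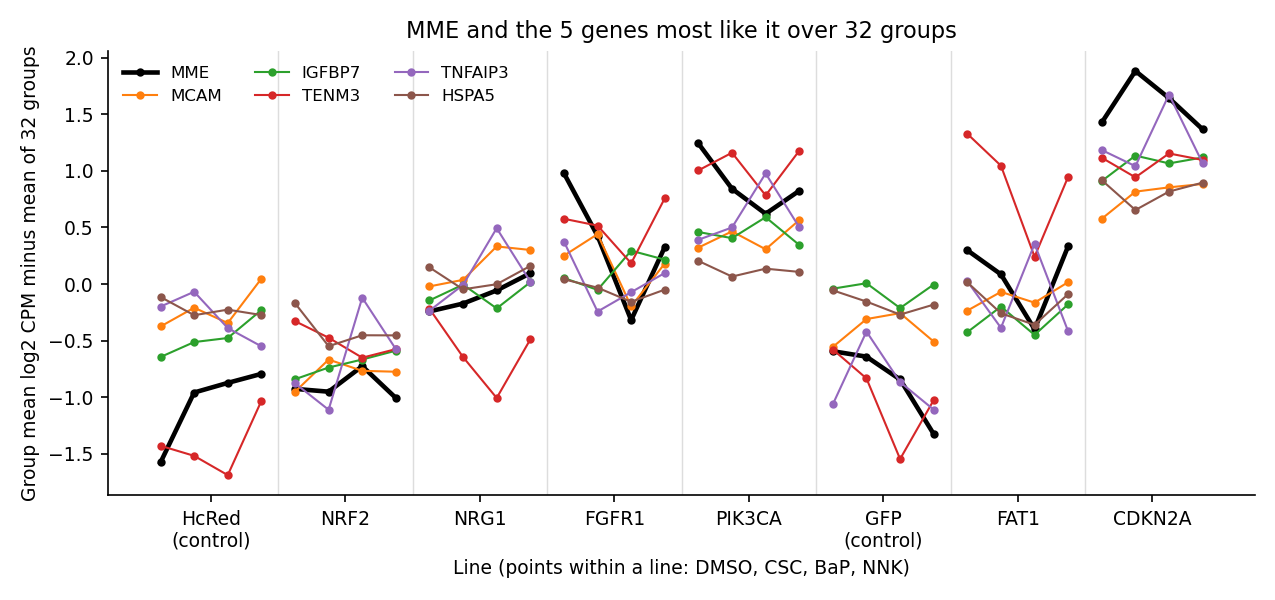
Group mean log2 CPM minus the mean of 32 groups (y axis) for MME (black) and the 5 genes most like it, by line (x axis), with the 4 points of a line in the order DMSO, CSC, BaP and NNK. MME and the other genes lie highest in the CDKN2A line, except TENM3, which reaches its highest mean in FAT1 cells with DMSO.

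MME was chosen for its rise in PIK3CA cells, and it was the 1 member of the M13 family that passed the test there. Over 3 carcinogens, 10.8% of all genes tested were higher and 11.0% lower in PIK3CA cells. Of the 7 genes in the family, 3 passed the filter on low counts: MME, ECE1, which cleaves big endothelin, and PHEX, which is known from phosphate balance in bone. ECE1 had a log2 fold change of 0.12 (SE 0.07, adjusted p = 0.258, limma) and PHEX one of -0.16 (SE 0.40, adjusted p = 0.829, limma) over 3 carcinogens. MMEL1, the closest relative of MME, had at most 1 count in any sample, as did ECEL1, and ECE2 and KEL had at most 2. In CDKN2A cells PHEX was higher than in GFP cells by 0.91 (SE 0.20, adjusted p = 6.65e-05, limma), and ECE1 had a log2 fold change of 0.08 (adjusted p = 0.367, limma).

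Among 18 other enzymes that cleave peptides or nucleotides, most of them at the cell surface, 14 were tested in PIK3CA against HcRed over 3 carcinogens, and 5 were higher and 0 lower, with a median of 0.15, where 10.8% of all genes tested were higher and 11.0% lower with a median of -0.01. NT5E, which encodes the 5'-nucleotidase CD73, rose by 0.80 (SE 0.08, adjusted p = 4.03e-13, limma), from a median of 126 CPM in HcRed to 218 CPM in PIK3CA cells. ANPEP, the aminopeptidase CD13 that shares peptide substrates with neprilysin, rose by 0.73 (SE 0.15, adjusted p = 1.87e-04, limma), from 16.1 to 28.7 CPM. ENPP1, a pyrophosphatase, rose by 0.66 (SE 0.20), and the aminopeptidases ERAP2 and ERAP1, which trim antigenic peptides, rose by 0.59 (SE 0.19) and 0.32 (SE 0.09). ACE, the angiotensin-converting enzyme, had a log2 fold change of 0.72 (SE 0.33, adjusted p = 0.115, limma) and DPP4 one of -0.20 (SE 0.40, adjusted p = 0.776, limma).

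Of 20 genes of peptides and proteins that neprilysin cleaves, 6 had enough reads to be tested in that comparison. With 1 higher and 1 lower, they stand beside 10.8% of all genes higher and 11.0% lower, and their median was 0.18 against -0.01 over all genes. FGF2, a growth factor, rose by 0.93 (SE 0.18, adjusted p = 2.98e-05, limma), from a median of 10.6 to 20.7 CPM. EDN1, which encodes endothelin-1, was lower by a log2 fold change of -1.38 (SE 0.35, adjusted p = 0.00219, limma), at a mean of 5.83 counts. APP, the precursor of amyloid beta, had 0.10 (SE 0.04, adjusted p = 0.0776, limma). TAC1, the source of substance P, had at most 1 count in any sample and no count in 90 of 95, and no count of GRP, PENK or SST was found in any sample. Of 18 receptors of those peptides, 8 were tested, with 0 higher, 2 lower and a median of -0.35, beside those same values over all genes. The 2 lower were NPR3, a clearance receptor of natriuretic peptides (-1.61, SE 0.29, adjusted p = 1.40e-05, limma, mean count 5.72) and ACKR3, a decoy receptor of chemokines that also binds adrenomedullin (-1.94, SE 0.49, adjusted p = 0.00180, limma, mean count 1.11). The bradykinin receptor BDKRB2 had -0.20 (SE 0.24, adjusted p = 0.623, limma).

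Of 28 genes of the PI3K-AKT pathway, 27 were tested over 3 carcinogens, with 3 higher, 5 lower and a median of -0.09. Over all genes 10.8% were higher and 11.0% lower with a median of -0.01, so the share that was higher was near that of all genes. Among those that rose were PIK3CA itself (2.62, SE 0.07) and INPP4B, a phosphatase of PI3K lipids (0.45, SE 0.08). FOXO1 fell by 0.59 (SE 0.13), FOXO3 fell by 0.40 (SE 0.08), PIK3R2, a regulatory subunit of PI3 kinase, fell by 0.29 (SE 0.08) and AKT1 fell by 0.29 (SE 0.07). FOXO4 was lower too (-0.78, SE 0.26), at a mean of 9.39 counts. These counts do not separate the endogenous PIK3CA gene from the introduced copy.

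Of 23 target genes of FOXO factors, 22 were tested, with 2 higher, 5 lower and a median of -0.15, against 10.8% higher, 11.0% lower and a median of -0.01 over all genes. TXNIP, an inhibitor of thioredoxin and glucose uptake, fell by 0.81 (SE 0.08, adjusted p = 3.19e-13, limma), BCL6 fell by 0.67 (SE 0.22), MXI1 by 0.56 (SE 0.18), SESN1 by 0.47 (SE 0.17) and SESN3 by 0.29 (SE 0.09). FBXO32, a ubiquitin ligase subunit, rose by 0.57 (SE 0.11), and CCNG2 rose by 0.34 (SE 0.10). Of 15 targets of mTORC1 in lipid synthesis and glycolysis, all 15 were tested, with 5 higher, 1 lower and a median of 0.09, beside the same shares and median over all genes. LDHA, lactate dehydrogenase A, rose by 0.47 (SE 0.05), PFKP by 0.34 (SE 0.05), HMGCS1 by 0.27 (SE 0.06), SCD by 0.21 (SE 0.03) and ACLY by 0.15 (SE 0.04), and the glucose transporter SLC2A1 fell by 0.40 (SE 0.07).

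**Figure D5:**
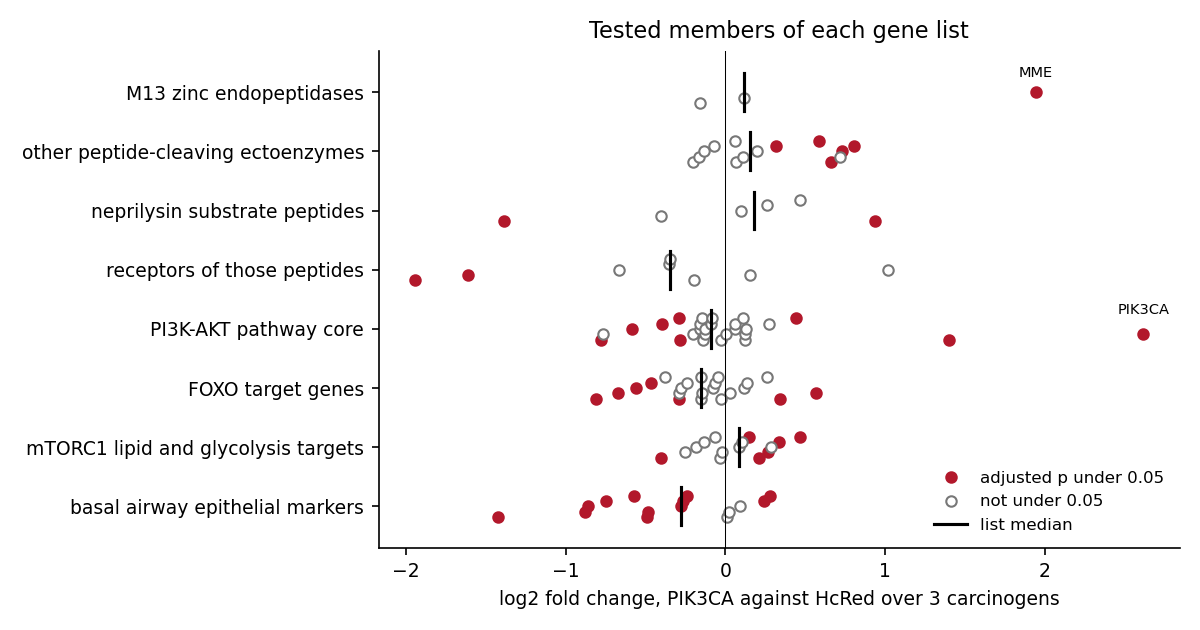
Log2 fold change of PIK3CA against HcRed over 3 carcinogens (x axis) of the tested members of 8 gene lists (y axis); filled points passed an adjusted p of 0.05 and black bars are list medians. MME, which was chosen for its rise with DMSO, lies at 1.94, apart from ECE1 and PHEX, the other tested members of its family.

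Markers of cells in which MME is known to be abundant were checked. All 11 markers of lymphoid and blood cells, among them PTPRC and DNTT, had a mean count under 1 in the PIK3CA line, 8 of them were at 0 in each of its 12 samples, and their summed level was at most 0.988 CPM there and 0.828 CPM in the HcRed line. The 8 markers of kidney and endothelium summed to 1.01 to 8.75 CPM in the PIK3CA line and 0 to 4.23 CPM in the HcRed line, with 3 and 4 of them at 0, and 0 of the 2 tested passed. The 12 markers of fibroblasts and stroma summed to 18.9 to 41.4 CPM in PIK3CA cells and 26.6 to 81.2 CPM in HcRed cells, with 0 of 5 tested higher and 2 lower over 3 carcinogens: COL1A1, a chain of type I collagen (-0.97, SE 0.17) and FBLN1, fibulin-1 (-1.06, SE 0.22). Of the 15 markers of basal airway epithelium, 2 were higher and 10 lower in PIK3CA cells, with a median of -0.28, against 10.8% higher, 11.0% lower and a median of -0.01 over all genes. KRT17 fell by 1.42 (SE 0.04, from 1823 to 684 CPM), KRT14 fell by 0.88 (SE 0.07), KRT15 by 0.86 (SE 0.21), DSG3 by 0.74 (SE 0.07), LAMB3 by 0.57 (SE 0.07), KRT5 by 0.49 (SE 0.03) and COL17A1 by 0.48 (SE 0.05). The part of these markers in the level of MME was not tested. In bulk RNA, fewer cells that express a gene and less RNA per cell cannot be told apart.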

How the data were processed

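RNA of 95 AALE samples was profiled by SFL sequencing. The authors trimmed single-end reads with cutadapt 1.12, checked them with FastQC 0.11.5, aligned them to hg19 with STAR 2.5.2b and used featureCounts for reads per RefSeq gene; the deposited values are these raw counts, 1 whole number per gene and sample. Groups were taken from the sample labels, and no replicate pair of 94 held identical counts.

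Library sizes were scaled by TMM (edgeR 4.0.16, R 4.3.3), and lines were compared by 2-sided tests of limma 3.58.1 after voom, in the samples compared, over genes with a mean count above 1, with Benjamini-Hochberg adjustment over all genes tested and a threshold of 0.05. Standard errors are those of limma, and 95% intervals of log2 fold changes use a normal quantile. CPM are TMM-normalized over the 95 samples, and log2 CPM use a prior count of 2. Levels are per library and not per length. The tests were tested on simulated data. Alternatives included DESeq2 1.42.0 (Wald test), its size factors, the quasi-likelihood test of edgeR, other filters, 1 fit of all samples, the replicate number as a block, and samples left out. Depth was 287446 to 2116383 counted reads per sample.

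The gene, the lists and the tests were chosen with earlier results of these data known. Named genes are MME, PIK3CA, the next 2 rises with DMSO, the 5 genes most like MME, its 5 neighbours on each side, and list members past the threshold with a mean count of at least 10, up to 8 a list by size. Other members were named after their values had been seen. Positions come from GENCODE models on GRCh37 and promoter windows from RefSeq on GRCh38.p14. Other platforms of the study were not analysed here. Some list members named by this rule are not reported here.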

Additional observations from a re-analysis of the deposited data

Results flagged for a closer look

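With CSC against DMSO, the MME levels of CDKN2A, FGFR1 and PIK3CA samples did not overlap, with differing signs. Whether the lines differed was not tested. In HcRed, NRF2, NRG1, GFP and FAT1 cells the samples with CSC and with DMSO overlapped. In CDKN2A cells every sample with CSC lay above every sample with DMSO, by 0.46 in mean log2 CPM, while in FGFR1 cells every sample with CSC lay below, by -0.55, and in PIK3CA cells by -0.40. Of the genes with a mean count above 1 in those samples, 11.2% lay higher without overlap in CDKN2A cells, and 18.3% and 17.1% lay lower in FGFR1 and PIK3CA cells. Such separation from DMSO was not limited to CSC. BaP samples lay below those with DMSO without overlap in PIK3CA (-0.62) and FAT1 cells (-0.70), and NNK samples did in FGFR1 cells (-0.65). In all other comparisons of BaP or NNK with DMSO within a line, the samples overlapped. Shares over all genes were not computed for BaP and NNK. The PIK3CA samples with DMSO chose the gene, and FGFR1 cells had 2 samples with CSC.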

How the results depend on the processing

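The call of MME in PIK3CA against HcRed over 3 carcinogens and with CSC held under every alternative that could be fitted. With DESeq2 it was lost with BaP (log2 fold change 1.82), NNK (1.91) and in NRG1 cells (1.10), and the counts of genes called fell to 515 with CSC, 331 with BaP and 338 with NNK. The cause was not tested. Sample by sample left out, the log2 fold change ranged from 1.45 to 1.94 with BaP and 1.25 to 2.33 with NNK, the genes called from 942 to 1338 with CSC, 566 to 1153 with BaP and 470 to 844 with NNK. Each-sample refits of the other lines were not run, and replicate numbers were left out instead (chosen after seeing the data), with 1.38 to 1.69 for FGFR1, 0.89 to 1.30 for NRG1, -0.21 to 0.36 for NRF2 and -0.31 to 0.27 for GFP against HcRed, and -0.17 to 0.055 for BaP against DMSO. For differences that were not called, signs turned in refits without 1 sample: -0.11 to 0.97 for the PIK3CA effect with CSC minus NNK, -0.65 to 0.43 for BaP minus NNK, and within PIK3CA cells -0.19 to 0.26 for CSC against NNK and -0.44 to 0.014 for BaP against NNK. FAT1 against NRG1 ranged from -0.080 to 0.35. GFP against HcRed was -0.041 without a filter and -0.093 in 1 fit of all 95 samples, and CSC against DMSO was -0.033 in that fit. By correlation, the replicate numbers showed no pairing of PIK3CA with HcRed samples within the carcinogens. In these 9 pairs the correlations of deviations between same-numbered samples lay between -0.0695 and 0.0159. Other lines and DMSO were not examined for pairing. With the replicate block, PIK3CA against HcRed over 3 carcinogens was 1.88, with 3405 genes called against 3131 without the block. The genes called rose from 1008 to 1121 with BaP and from 927 to 1164 with NNK, and fell from 1504 to 1461 with CSC. The cause of these changes was not tested. Under the block, CSC against NNK in PIK3CA cells was -0.086 and GFP against HcRed -0.013, and no call of MME changed. MME did not pass a mean count of 10 in the comparison with BaP or in those of NRF2, FGFR1, NRG1, GFP, FAT1 and all 8 lines, so that filter gave no value there. Depth limits single libraries: MME had 3 counts or fewer in 23 of 95.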
